A study of Dimocarpus longan with 9 samples.

Results

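Basic helix-loop-helix (bHLH) transcription factor genes of longan (Dimocarpus longan) were followed through 9 tissues of the cultivar “SJM”. The members were all genes of type bHLH in the transcription factor list of the study, which was made from the longan draft genome of another cultivar, “Honghezi”. Of the 107 bHLH genes listed, 106 were found by their identifier among the 30014 genes of the deposited expression table, and Dlo_012099.1 was not matched. The table gives FPKM, the fragments counted on a gene divided by its exon length and by the mapped fragments of the library. Vegetative organs (root, stem and leaf), floral organs (flower bud and flower), the young fruit, and the peel (pericarp), pulp and seed of the fruit were sampled, with 1 library per tissue. No tissue was treated, and tissue was the only difference that the labels gave between the libraries. Without replicates, no difference between tissues could be tested, and all differences below are descriptions of these 9 libraries.

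bHLH proteins bind DNA as dimers through a basic region, and the helix-loop-helix region next to it holds the dimer together. Many of them recognize E-box sequences in promoters. In plants the family is known from studies of Arabidopsis for roles in light signalling, root hair and stomatal development, iron uptake, anther and fruit development, and jasmonate responses, and bHLH proteins form complexes with MYB proteins that control anthocyanin and proanthocyanidin synthesis. The table pairs no identifier with a gene name, so most members are given here by identifier and by their levels. The supplements of the study annotate 2 members further. Dlo_005226.1 carries a match to phytochrome-interacting factor 3 (PIF3), which in Arabidopsis binds light-activated phytochrome and takes part in seedling light responses. Dlo_003348.2 carries a match to the bHLH domain itself.

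The totals per library lay between 884470 FPKM in leaf and 1011820 FPKM in root. Among genes with low values in every tissue, the most frequent log2 ratio of a library to root was found. Such genes were taken to often hold the same few fragments in both libraries. With its sign turned, this ratio was read as a depth relative to root. It lay between -0.12 in pulp and 0.54 in leaf on the log2 scale. The absolute depth is not given by FPKM, so no counting interval is given. The smallest value above 0 among the members was 0.07 FPKM. In bulk tissue, fewer cells that use a gene and less of its RNA per cell cannot be told apart. The labelled tissues could be set only beside the 24 MADS genes of type MIKC, the type that holds the floral organ identity genes. Their summed level was 1382 FPKM in flower bud and 1429 FPKM in flower, against 107 FPKM in root, 301 FPKM in stem and 567 FPKM in leaf, while the fruit tissues had 958 to 2072 FPKM.

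Fewer of the bHLH genes than of all genes were seen at 1 FPKM or more throughout the plant. Of the 106 genes, 103 were above 0 FPKM in at least 1 tissue, a share of 97.2% that lay near the 95.3% of all genes, and 93 reached 1 FPKM, which is 87.7% beside 78.8% of all genes. In all 9 tissues, 26 bHLH genes were at 1 FPKM or more, which is 24.5% beside 40.2% of all genes and 39.1% of the 1423 other transcription factor genes. This low share was not particular to the bHLH genes, since it was 18.8% of the MYB genes and 25.2% of the NAC genes. A further 10 genes were above 0 but stayed under 1 FPKM. Dlo_000493.1, Dlo_003448.1 and Dlo_024318.1 were listed at 0 in every tissue. Highest values spread over a wide range, with 69 genes reaching 10 FPKM (65.1%, beside 55% of all genes and 64.4% of the other transcription factor genes) and 16 reaching 100 FPKM (15.1%, beside 15.4% of all genes). The median of the highest values was 26.9 FPKM, close to the 25.8 FPKM of the other transcription factor genes and beside 13.8 FPKM over all genes.

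**Figure D1:**
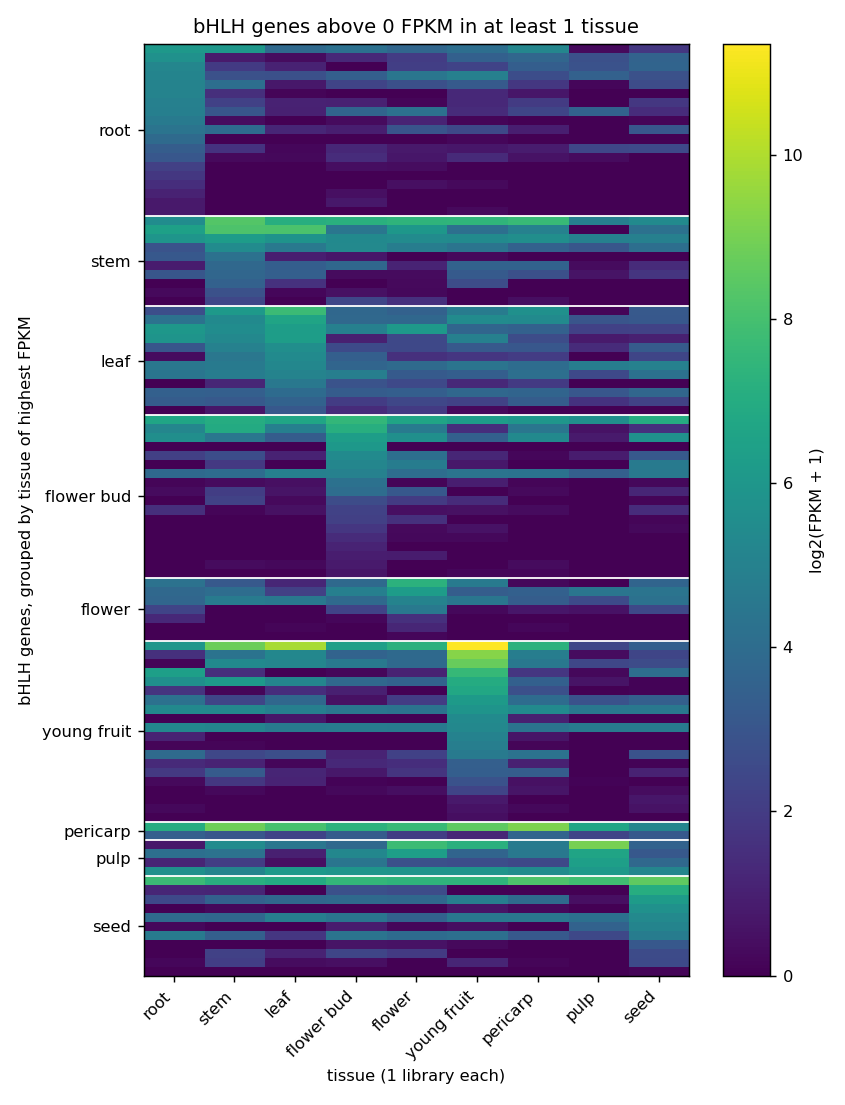
Expression of the 103 bHLH genes above 0 FPKM, 1 row per gene, grouped by the tissue of highest FPKM (left) across the 9 tissues (1 library each), with colour giving log2(FPKM + 1). Most rows are bright in the tissue that groups them and dark in pulp, where 56 of the 106 genes were listed at 0.

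Above 0 FPKM in root were 79 members (74.5%, beside 74% of all genes), in stem 77 members (72.6%, beside 73.6%) and in leaf 71 members (67.0%, beside 70.9%). The flower bud library listed 86 members above 0 (81.1%, beside 77% of all genes), that of flower 81 members (76.4%, beside 74.7%) and that of young fruit 85 members (80.2%, beside 75.8%). The vegetative and floral shares and that of young fruit thus lay within 5 points of the table as a whole. In pericarp 74 members were above 0 (69.8%, beside 72.6%), in seed 74 members (69.8%, beside 74.4%), and in pulp 50 members, a share of 47.2% beside 64.4% of all genes and 60.3% of the other transcription factor genes. The low share in pulp was not particular to the bHLH genes, since 46.2% of the MYB genes and 40.8% of the NAC genes, families of like size, were above 0 there. Pulp also had the lowest relative depth of the 9 libraries, and the part of depth in this gap was not tested. Of the 57 members with 1 lowest tissue that reached 1 FPKM, 31 were lowest in pulp, which is 54.4% beside 33.8% of all such genes, 41.1% of the other transcription factor genes, 42.6% of the MYB genes and 56.8% of the NAC genes.

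The summed level of the family was highest in young fruit, a rank that rested on a few very abundant genes. It was 1864 FPKM in root, 2990 FPKM in stem, 3074 FPKM in leaf, 1857 FPKM in flower bud, 2075 FPKM in flower, 5923 FPKM in young fruit, 2040 FPKM in pericarp, 1442 FPKM in pulp and 1526 FPKM in seed. In young fruit, 3 genes (Dlo_015630.1, Dlo_010846.1 and Dlo_027394.1) made up 61.7% of this sum. Without Dlo_015630.1, the member with the highest value of all, the sum of young fruit was 3313 FPKM, that of stem 2544 FPKM and that of leaf 2132 FPKM. The 5 genes with the highest mean over the tissues held 47.6% of the summed mean of the family.

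Dlo_015630.1 had the highest mean, 494 FPKM. It was at 60.9 FPKM in root, 445 FPKM in stem, 942 FPKM in leaf, 82.6 FPKM in flower bud, 145 FPKM in flower, 2609.9 FPKM in young fruit, 149 FPKM in pericarp, 4.17 FPKM in pulp and 9.74 FPKM in seed. Young fruit and leaf stood highest and pulp and seed lowest, with a 626-fold range. Dlo_016742.1 had the next highest mean, 251 FPKM, and was at 131 FPKM in root, 459 FPKM in stem, 263 FPKM in leaf, 154 FPKM in flower bud, 198 FPKM in flower, 368 FPKM in young fruit, 548 FPKM in pericarp, 102 FPKM in pulp and 34.6 FPKM in seed. It was high in every tissue but seed and was the member with the highest value in pericarp. Dlo_009316.1 was at 214 FPKM in root, 141 FPKM in stem, 122 FPKM in leaf, 184 FPKM in flower bud, 167 FPKM in flower, 167 FPKM in young fruit, 291 FPKM in pericarp, 229.5 FPKM in pulp and 379.7 FPKM in seed. Its range was 3.12-fold, the narrowest among the 5, and it was the highest member in root, flower bud and seed.

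Dlo_030327.1 ranged from 28.9 FPKM in pulp to 313 FPKM in stem, and was at 138 to 202 FPKM in leaf, flower bud, flower, young fruit and pericarp, 45.4 FPKM in root and 42.7 FPKM in seed. Dlo_005407.1 was at 0.64 FPKM in root, 43.7 FPKM in stem, 21.2 FPKM in leaf, 13.2 FPKM in flower bud, 217 FPKM in flower, 147 FPKM in young fruit, 24.8 FPKM in pericarp, 515 FPKM in pulp and 10.97 FPKM in seed. It was thus the highest member in flower and pulp, against low levels in root, flower bud and seed, and it alone made up 35.7% of the family sum in pulp.

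**Figure D2:**
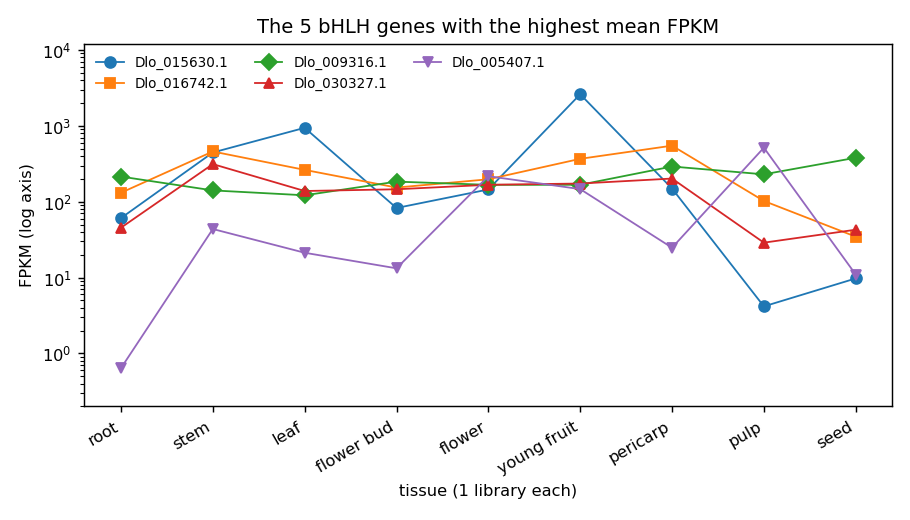
FPKM (log axis) of the 5 bHLH genes with the highest mean over the 9 tissues, 1 point per library, with lines only joining the points of a gene. Dlo_009316.1 stays between 122 and 379.7 FPKM, while Dlo_015630.1 runs from 4.17 FPKM in pulp to 2609.9 FPKM in young fruit.

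By the tissue of highest FPKM, root and young fruit held the most of the 93 bHLH genes that reached 1 FPKM. Root was highest for 17 genes, which is 18.3% beside 17.3% of the 23661 such genes of the table. Stem was highest for 10 genes (10.8%, beside 6.52% of all genes) and leaf for 12 genes (12.9%, beside 14%). Flower bud was highest for 15 genes (16.1%, beside 9.26%), flower for 6 genes (6.45%, beside 6.64%) and young fruit for 17 genes (18.3%, beside 15.1%). Pericarp was highest for 2 genes (2.15%, beside 8.45%), pulp for 4 genes (4.30%, beside 11.6%) and seed for 10 genes (10.8%, beside 11.2%). The MYB genes, whose proteins are known partners of bHLH proteins, were highest in root for 34 of 99 genes (34.3%). Flower bud was highest for 12 of 99 MYB genes and 11 of 75 NAC genes, shares also above that of all genes. Pulp was highest for 6.06% of the MYB genes and 1.33% of the NAC genes. The high share in flower bud and the low share in pulp were thus not particular to the bHLH genes. Pericarp was highest for 7.07% of the MYB genes and 20% of the NAC genes. With these few genes per tissue, the shares were not tested against each other.

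**Figure D3:**
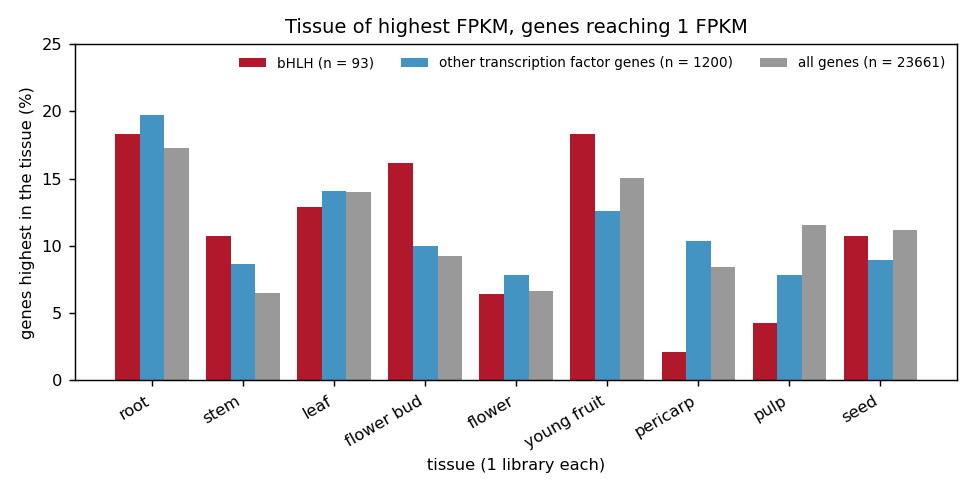
Share of genes (%) whose highest FPKM lay in each of the 9 tissues (1 library each), among the 93 bHLH genes, 1200 other transcription factor genes and 23661 genes of the whole table that reached 1 FPKM. The bHLH bars stand above those of all genes in flower bud (16.1% and 9.26%) and below them in pericarp (2.15% and 8.45%) and pulp (4.30% and 11.6%). The shares of the MYB and NAC genes also lay above that of all genes in flower bud and below it in pulp.

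Members that were restricted to a tissue were found by the tau index on log2(FPKM + 1), which is 0 for a gene at the same level everywhere and 1 for a gene listed above 0 in a single tissue. A tau of at least 0.9 with at least 1 FPKM was reached by 21 of the 93 bHLH genes. This is 22.6%, beside 9.02% of all genes, 9.75% of the other transcription factor genes, 17.2% of the MYB genes and 9.33% of the NAC genes. All 21 were listed at 0 in pulp, as were 81.3% of all restricted genes and 89.8% of those restricted to a tissue other than pulp, and the limit on tau itself asks for values near 0 in most tissues. Just outside the limit lay Dlo_030129.1 with a tau of 0.88 and just inside it Dlo_018066.1 with 0.90. The count depends on how low values are treated, since with 0.1 FPKM added in place of 1 FPKM it was 12, which is 12.9% beside 6.0% of all genes. With a highest value of at least 10 FPKM, a limit chosen after seeing the data, it was 9 of 69 genes (13.0%, beside 3.72%).

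Root held 7 of the 21 restricted genes (33.3%, beside 23.7% of all restricted genes). Dlo_000494.1 was at 32.7 FPKM in root, 1.85 FPKM in stem and 1.48 FPKM in young fruit, and at 0.60 FPKM or less in the other tissues. Dlo_014991.1 was at 23.5 FPKM in root and at most 1.21 FPKM elsewhere, and Dlo_000497.1 was at 14.1 FPKM in root, 0.16 FPKM in young fruit and listed at 0 in the remaining 7 tissues. The others were low even in root, with Dlo_030130.1 at 3.50 FPKM, Dlo_026505.1 at 2.55 FPKM, Dlo_000492.1 at 1.84 FPKM and Dlo_000264.1 at 1.11 FPKM. Dlo_026505.1 was listed at 0 in all other tissues. Below the limit but also led by root were Dlo_030081.1, with 52.9 FPKM in root and at most 12.2 FPKM elsewhere, and Dlo_011360.1, with 36.3 FPKM in root, at most 11.6 FPKM elsewhere and 0 in flower bud. Dlo_030781.1 was highest in root by a small margin, with 65.0 FPKM in root and 63.3 FPKM in stem, and was at 0.22 FPKM in pulp.

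In stem, which held 6.04% of all restricted genes, the single restricted member was Dlo_022182.1, with 5.94 FPKM in stem and at most 0.41 FPKM elsewhere. Dlo_028720.1 was at 288 FPKM in stem and 277 FPKM in leaf, at 86.8 FPKM in root and listed at 0 in pulp. Dlo_028817.1 was at 213 FPKM in leaf, 68.6 FPKM in stem, 50.4 FPKM in pericarp and 0.13 FPKM in pulp. No bHLH gene was restricted to leaf, which held 4.92% of all restricted genes. Of the 2 annotated members, Dlo_003348.2 was highest in leaf (97.3 FPKM, with 41.4 FPKM in stem, 43.2 FPKM in young fruit, 41.8 FPKM in pericarp and 7.03 to 18.6 FPKM elsewhere). The PIF3 match Dlo_005226.1 was highest in the shoot and floral tissues. It was at 6.43 FPKM in root, 43.2 FPKM in stem, 22.8 FPKM in leaf, 39.8 FPKM in flower bud, 26.7 FPKM in flower, 19.5 FPKM in young fruit, 10.5 FPKM in pericarp, 7.16 FPKM in pulp and 16.1 FPKM in seed, a 6.72-fold range with root and pulp lowest.

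Flower bud held 6 restricted genes (28.6%, beside 18.4% of all restricted genes). Dlo_024244.1 was at 64.8 FPKM in flower bud and listed at 0 in the 8 other tissues, the open flower included. Dlo_032624.1 was at 17.8 FPKM in flower bud, 0.11 FPKM in flower and 0.95 FPKM in young fruit, and at 0.36 FPKM or less elsewhere. Both genes were thus at or near 0 in the open flower. The other 4 were at 3.48 FPKM (Dlo_018066.1), 2.49 FPKM (Dlo_011811.1), 1.60 FPKM (Dlo_005240.1) and 1.21 FPKM (Dlo_008458.1) in flower bud, and Dlo_008458.1 was listed at 0 elsewhere. The open flower led for other genes. Dlo_000697.1 was at 156 FPKM in flower, 24.3 FPKM in young fruit, 18.6 FPKM in root and 13.6 FPKM in flower bud, and Dlo_026043.1 was at 77.2 FPKM in flower and 28.6 FPKM in flower bud. The single restricted member in flower, which held 7.4% of all restricted genes, was Dlo_033795.1 at 1.36 FPKM.

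Young fruit held 4 restricted genes (19.0%, beside 5.76% of all restricted genes), of which 3 belong to the group of close identifiers from Dlo_008217.1 to Dlo_008221.1. They were Dlo_008219.1 (42.8 FPKM), Dlo_008217.1 (32.0 FPKM), Dlo_008221.1 (27.7 FPKM) and Dlo_027777.1 (4.08 FPKM). Some of its most abundant members were seen in most tissues at far lower levels. Dlo_010846.1 was at 620.1 FPKM in young fruit, 37.7 FPKM in leaf and 27.1 FPKM in pericarp, and at 0.31 FPKM in pulp. Dlo_027394.1 was at 424 FPKM in young fruit, 40.7 FPKM in stem and 35.9 FPKM in leaf, and at 0.11 FPKM in root. Dlo_000515.1 joined young fruit (191 FPKM) with root (84.2 FPKM) and was at 15.9 FPKM in seed, at most 2.49 FPKM in the other tissues and 0 in leaf. No member was restricted to pericarp or pulp, which held 3.14% and 9.51% of all restricted genes. The 4 members highest in pulp were Dlo_005407.1, Dlo_022424.1 (98.2 FPKM in pulp, 81.7 FPKM in flower), Dlo_000274.1 (84.1 FPKM in pulp, 20.3 FPKM in flower bud) and Dlo_026054.2 (67.9 FPKM in pulp, 66.6 FPKM in leaf).

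Seed held 2 restricted genes, Dlo_016728.1 and Dlo_008498.1 (9.52%, beside 21.1% of all restricted genes). Dlo_016728.1 was at 52.6 FPKM in seed, 0.52 FPKM in young fruit, 0.18 FPKM in stem and 0.17 FPKM in pericarp, and was listed at 0 in the other tissues. Dlo_008498.1 was at 7.62 FPKM in seed and at most 0.51 FPKM elsewhere. Dlo_018083.1, with a tau of 0.86, was the most abundant seed-led gene after Dlo_009316.1, at 135 FPKM in seed, 5.76 FPKM in flower bud and 5.18 FPKM in flower, and at 0 in leaf, young fruit, pericarp and pulp. Dlo_024828.1 was at 33.9 FPKM in seed and 10.7 FPKM in pulp, and at most 0.80 FPKM in the other tissues.

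At the other end of the family, 10 of the 26 bHLH genes at 1 FPKM or more in all tissues were steady, with a ratio of highest to lowest FPKM under 4. This is 38.5%, beside 44.5% of all such genes. Dlo_026767.1 had the smallest ratio, 1.90, with 37.8 FPKM in young fruit, 37.0 FPKM in root, 33.6 FPKM in stem, 25.8 FPKM in flower bud, 25.0 FPKM in leaf, 24.3 FPKM in flower, 24.0 FPKM in pulp, 23.6 FPKM in seed and 19.9 FPKM in pericarp. Dlo_021414.1 (7.48 FPKM in pulp to 14.6 FPKM in leaf), Dlo_026054.2 (33.7 FPKM in stem to 67.9 FPKM in pulp), Dlo_023945.1 (30.1 FPKM in pulp to 75.8 FPKM in stem) and Dlo_007736.1 (18.9 FPKM in flower to 57.7 FPKM in young fruit) followed with ratios of 1.95, 2.02, 2.52 and 3.05. The others were Dlo_009316.1, Dlo_005414.1, Dlo_025145.1, Dlo_012166.1 and Dlo_001190.1, with ratios between 3.12 and 3.81, and Dlo_001190.1 was the second highest member in flower bud at 183 FPKM. Steady members thus included both abundant genes and genes of about 10 FPKM.

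Some bHLH genes have identifiers whose numbers lie close together. Taking neighbours at most 5 apart in number gave 8 groups with 23 genes. Whether such genes also lie side by side in the genome was not examined, and how fragments that match several similar genes were counted is not given in the sources used here, so levels within a group may share fragments. Over the 9 tissues, Pearson's r of log2(FPKM + 1) between 2 genes of a group had a median of 0.70 over 24 pairs with values, and 45.8% of these pairs were over 0.8. Over all 5253 pairs of members with values the median was 0.06 and 2.76% were over 0.8. Of the 11 group pairs over 0.8, 6 came from the group Dlo_008217.1 to Dlo_008221.1 alone. The root-led genes of the group Dlo_000489.1 to Dlo_000497.1 gave further ones. Pairs of a group share genes and are not independent. The same values for close identifiers among all genes were not computed, so a trait of the family cannot be read from them. Restricted genes made up 9 of the 18 genes in these groups that reached 1 FPKM (50%), and 12 of the 75 genes outside them (16.0%), beside 9.02% of all genes. Several of the 9 lie in the same group and may share fragments. The share for close identifiers among all genes was not computed, so no trait of the family can be read from these counts either.

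The group from Dlo_008217.1 to Dlo_008221.1 held 4 genes, all of them highest in young fruit, with r between 0.91 and 0.98. Dlo_008220.2 was at 109 FPKM in young fruit, 5.88 FPKM in pericarp, 2.25 FPKM in root, 1.81 FPKM in leaf and 0.99 FPKM in flower bud, and at 0.12 FPKM or less elsewhere. Dlo_008219.1 was at 42.8 FPKM in young fruit and 0.99 FPKM in pericarp, Dlo_008217.1 at 32.0 FPKM and 0.58 FPKM, and Dlo_008221.1 at 27.7 FPKM and 0.12 FPKM. All 4 were listed at 0 in flower and pulp.

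The group from Dlo_000489.1 to Dlo_000497.1 held 6 genes with unlike profiles. Dlo_000489.1 was highest in leaf (22.4 FPKM) and listed at 0 in root, while Dlo_000491.1 was at 9.48 FPKM in young fruit, 9.03 FPKM in pericarp and 8.64 FPKM in stem. Dlo_000492.1, Dlo_000494.1 and Dlo_000497.1 were all highest in root and all restricted to it, with r between 0.88 and 0.95 among them. Dlo_000493.1 was at 0 throughout. The r between the leaf-led gene and the 3 root-led genes lay between -0.41 and -0.34.

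**Figure D4:**
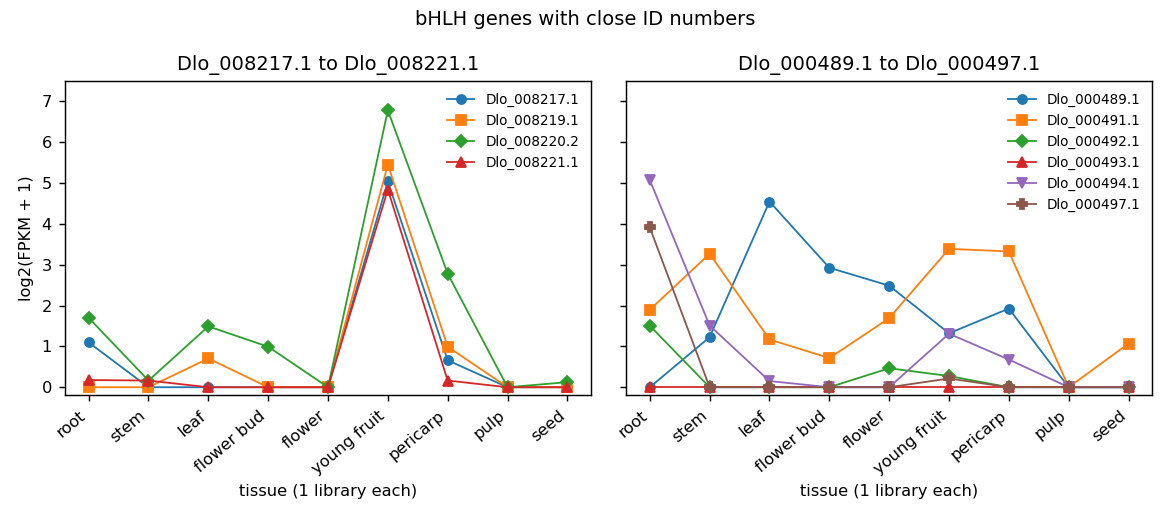
log2(FPKM + 1) in the 9 tissues (1 library each) for the bHLH genes of the group Dlo_008217.1 to Dlo_008221.1 (left) and the group Dlo_000489.1 to Dlo_000497.1 (right), with lines only joining the points of a gene. All 4 genes on the left are highest in young fruit, while the genes on the right are highest in root, leaf or young fruit or lie at 0.

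In the smaller groups, Dlo_018063.1 (42.6 FPKM in flower bud, 16.5 FPKM in flower) and Dlo_018066.1 (3.48 FPKM and 1.99 FPKM) were led by the same tissues, with r of 0.86. Dlo_030476.1 and Dlo_030478.1 were highest in flower bud (5.26 FPKM and 0.88 FPKM), with r of 0.70. Dlo_030129.1 was at 1.95 FPKM in flower and 1.46 FPKM in root, and Dlo_030130.1 was at 3.50 FPKM in root and 0.30 FPKM in flower, with r of 0.70. Dlo_026504.1 (7.41 FPKM) and Dlo_026505.1 (2.55 FPKM) were highest in root, with r of 0.85, while Dlo_026507.1 was highest in stem (12.5 FPKM). The remaining pairs were unlike, as Dlo_012465.1 and Dlo_012468.1 stayed under 1 FPKM in different tissues (r of -0.28), and Dlo_021511.1 was seen only in seed at 0.13 FPKM while Dlo_021513.1 was at 4.37 FPKM in stem and 4.35 FPKM in flower bud (r of -0.27).

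Tissue pairs were then compared gene by gene. The log2 difference was taken between FPKM + 1 of the first-named and FPKM + 1 of the second-named tissue, and genes with a log2 difference of at least 1 in size, which is 2-fold on this scale, are given as differing. The scale understates differences between low values. Of the 12 comparisons, 11 are named by the study, and young fruit VS pericarp was added. Several comparisons share a library and are therefore not independent. In at least 1 comparison 88 of the 106 bHLH genes differed (83.0%, beside 71.3% of all genes), and 19 genes differed in 9 or more (17.9%, beside 8.5% of all genes). The share of members that differed was above that of all genes in 12 of 12 comparisons and above that of the other transcription factor genes in 10 of 12. Such high shares were not particular to the bHLH genes. Of the MYB genes, 62.5% differed in root VS stem and 59.3% in pericarp VS pulp, above the bHLH shares of 58.4% and 49.3%. In leaf VS stem 43.3% and in pulp VS seed 51.9% of the MYB genes differed, below the bHLH shares of 48.1% and 55.3%.

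Among the vegetative organs, 52 of 89 bHLH genes above 0 in either tissue (58.4%) differed in root VS stem, beside 33.4% of all genes. Of these, 25 were higher in root (28.1%, beside 18.6% of all genes) and 27 in stem (30.3%, beside 14.9%). Higher in root were Dlo_030081.1 (52.9 FPKM in root, 0.76 FPKM in stem) and Dlo_000515.1 (84.2 FPKM and 1.93 FPKM), and higher in stem were Dlo_027394.1 (0.11 FPKM in root, 40.7 FPKM in stem) and Dlo_005407.1 (0.64 FPKM and 43.7 FPKM). Their log2 differences, root minus stem, were 4.94 and 4.86 on the side of root and -5.23 and -4.77 on the side of stem.

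In root VS leaf, 51 of 87 genes (58.6%) differed beside 43% of all genes, with 33 higher in root (37.9%, beside 24.8%) and 18 in leaf (20.7%, beside 18.2%). Dlo_000515.1 was at 84.2 FPKM in root and listed at 0 in leaf, and Dlo_030081.1 was at 52.9 FPKM in root and 0.31 FPKM in leaf. Dlo_031800.1 was at 0.29 FPKM in root and 42.3 FPKM in leaf, and Dlo_027394.1 at 0.11 FPKM in root and 35.9 FPKM in leaf. In leaf VS stem, 38 of 79 genes (48.1%) differed beside 28.7% of all genes. Here the split was uneven, with 9 higher in leaf (11.4%, beside 11.3%) and 29 higher in stem (36.7%, beside 17.4%). The median log2 difference of the members, leaf minus stem, was -0.43, beside -0.03 over all genes, -0.46 over the MYB genes and -0.42 over the NAC genes. It was -0.91 with 0.1 FPKM added, -0.30 with 5 FPKM added and -0.79 over members at 1 FPKM or more in either tissue. The genes with the largest differences were Dlo_000489.1 (22.4 FPKM in leaf, 1.34 FPKM in stem) and Dlo_027125.1 (7.66 FPKM and 0.63 FPKM) on the side of leaf, and Dlo_032273.1 (0.64 FPKM in leaf, 16.1 FPKM in stem) and Dlo_024540.1 (0.95 FPKM and 17.8 FPKM) on the side of stem.

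From the bud to the young fruit, the fewest members differed between flower bud and open flower. In flower bud VS flower, 29 of 91 genes (31.9%) differed beside 18.8% of all genes, with 13 higher in flower bud (14.3%, beside 11.3%) and 16 in flower (17.6%, beside 7.51%). Dlo_024244.1 and Dlo_032624.1 led on the side of the bud, and Dlo_005407.1 (13.2 FPKM in flower bud, 217 FPKM in flower) and Dlo_000697.1 (13.6 FPKM and 156 FPKM) on the side of the flower, with log2 differences of -3.94 and -3.43. In flower bud VS young fruit, 55 of 99 genes (55.6%) differed beside 37.7% of all genes. Of these, 28 were higher in flower bud (28.3%, beside 14.5%) and 27 in young fruit (27.3%, beside 23.3%). Dlo_024244.1 was at 64.8 FPKM in flower bud and listed at 0 in young fruit, a log2 difference of 6.04. Dlo_015028.1 followed with 136 FPKM in flower bud and 1.83 FPKM in young fruit, a log2 difference of 5.60. Dlo_000515.1 was at 0.15 FPKM in flower bud and 191 FPKM in young fruit, a log2 difference of -7.38, and Dlo_008220.2 was at 0.99 FPKM and 109 FPKM.

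In flower VS young fruit, 47 of 96 genes (49.0%) differed beside 41.1% of all genes, with 20 higher in flower (20.8%, beside 12.6%) and 27 in young fruit (28.1%, beside 28.5%). Dlo_009037.1 (23.4 FPKM in flower, 0.20 FPKM in young fruit) and Dlo_026247.1 (26.0 FPKM and 0.65 FPKM) led in flower. Dlo_008220.2 (0 in flower, 109 FPKM in young fruit) and Dlo_000515.1 (1.11 FPKM and 191 FPKM) led in young fruit. The young fruit library lies high over the table as a whole, since its median ratio over 12039 genes above 1 FPKM in all tissues was 0.27 on the log2 scale against -0.25 in flower. With each library scaled by this ratio, 24 members were higher in flower and 24 in young fruit.

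**Figure D5:**
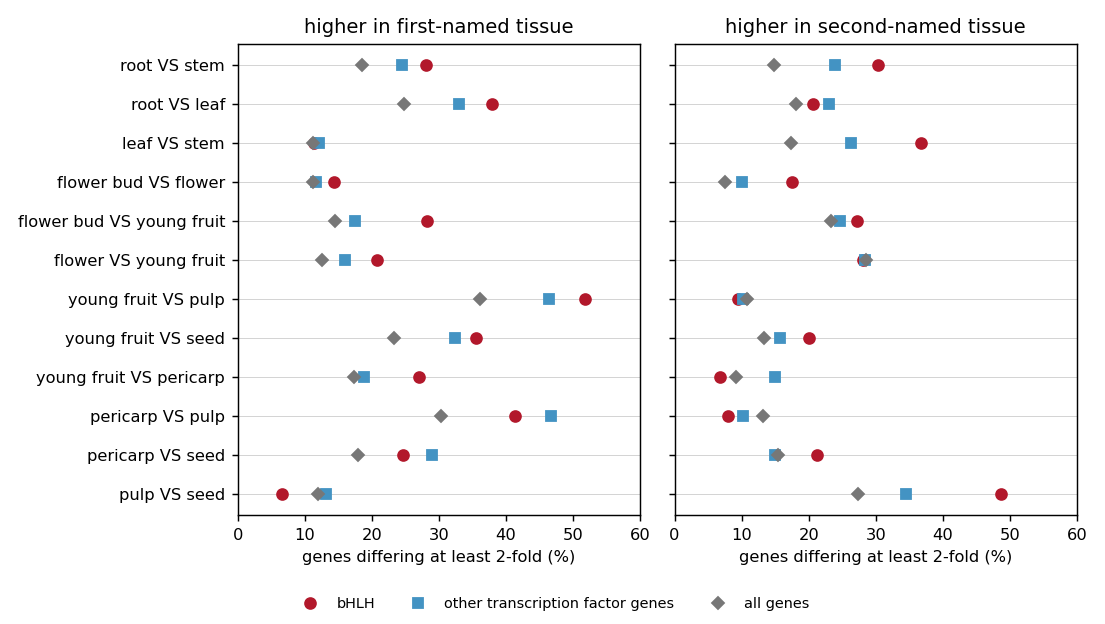
Share of genes (%) differing at least 2-fold and higher in the first-named (left) or the second-named tissue (right) in 12 comparisons, for bHLH genes, other transcription factor genes and all genes above 0 FPKM in either tissue (1 library per tissue). The bHLH share reaches 51.8% for young fruit over pulp and 48.7% for seed over pulp, beside 36.1% and 27.4% of all genes.

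In all 3 comparisons with pulp, most of the members that differed were lower in pulp, also after scaling. In young fruit VS pulp, 52 of 85 genes (61.2%) differed beside 46.9% of all genes, with 44 higher in young fruit (51.8%, beside 36.1%) and 8 in pulp (9.41%, beside 10.9%). The median log2 difference of the members was 1.20, beside 0.55 over all genes, 0.86 over the other transcription factor genes, 1.05 over the MYB genes and 0.95 over the NAC genes, and that of the members was 0.84 after scaling. Its size also depended on the value added to FPKM, and it was 2.23 with 0.1 FPKM and 0.51 with 5 FPKM added. Dlo_015630.1 (2609.9 FPKM in young fruit, 4.17 FPKM in pulp) and Dlo_010846.1 (620.1 FPKM and 0.31 FPKM) differed by 8.98 and 8.89 on the log2 scale. On the side of pulp were Dlo_000274.1 (5.51 FPKM in young fruit, 84.1 FPKM in pulp) and Dlo_024828.1 (0.33 FPKM and 10.7 FPKM).

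In pericarp VS pulp, 37 of 75 genes (49.3%) differed beside 43.5% of all genes and 56.8% of the other transcription factor genes. Of the 37, 31 were higher in pericarp (41.3%, beside 30.3% of all genes) and 6 in pulp (8.0%, beside 13.2%). The share higher in pericarp was 46.6% of the other transcription factor genes, 50.0% of the MYB genes and 63.4% of the NAC genes. The share higher in pulp was 10.2%, 9.30% and 2.82% of these. Dlo_028817.1 (50.4 FPKM in pericarp, 0.13 FPKM in pulp) led on one side, followed by Dlo_028720.1 (30.6 FPKM and 0), and Dlo_005407.1 (24.8 FPKM in pericarp, 515 FPKM in pulp) and Dlo_000274.1 (4.49 FPKM and 84.1 FPKM) on the other. In pulp VS seed, 42 of 76 genes (55.3%) differed beside 39.4% of all genes, with 5 higher in pulp (6.58%, beside 12%) and 37 in seed (48.7%, beside 27.4%). Dlo_005407.1 (515 FPKM in pulp, 10.97 FPKM in seed) and Dlo_022424.1 (98.2 FPKM and 7.85 FPKM) were higher in pulp, and Dlo_018083.1 (0 in pulp, 135 FPKM in seed) and Dlo_023998.1 (0.39 FPKM and 74.4 FPKM) in seed.

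In young fruit VS seed, 50 of 90 genes (55.6%) differed beside 36.7% of all genes, with 32 higher in young fruit (35.6%, beside 23.3%) and 18 in seed (20%, beside 13.4%). The young fruit genes Dlo_015630.1 and Dlo_010846.1 were at 9.74 FPKM and 4.24 FPKM in seed. The seed genes Dlo_018083.1 and Dlo_016728.1 were at 0 and 0.52 FPKM in young fruit. In young fruit VS pericarp, 30 of 89 genes (33.7%) differed beside 26.5% of all genes and 33.8% of the other transcription factor genes. Of the 30, 24 were higher in young fruit (27.0%, beside 17.3% of all genes) and 6 in pericarp (6.74%, beside 9.16%), and after scaling the split was 21 and 10. Dlo_000515.1 (191 FPKM in young fruit, 2.49 FPKM in pericarp) and Dlo_008221.1 (27.7 FPKM and 0.12 FPKM) led in young fruit, and Dlo_015028.1 (1.83 FPKM in young fruit, 21.2 FPKM in pericarp) and Dlo_005217.1 (1.32 FPKM and 11.8 FPKM) in pericarp. In pericarp VS seed, 39 of 85 genes (45.9%) differed beside 33.3% of all genes, with 21 higher in pericarp (24.7%, beside 17.9%) and 18 in seed (21.2%, beside 15.4%). Dlo_016742.1 (548 FPKM in pericarp, 34.6 FPKM in seed) and Dlo_015630.1 (149 FPKM and 9.74 FPKM) were higher in pericarp, and Dlo_018083.1 (0 and 135 FPKM) and Dlo_016728.1 (0.17 FPKM and 52.6 FPKM) in seed.

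Finally, the 9 tissues were compared over all members at once. Pearson's r of log2(FPKM + 1) was computed across the 106 genes for each of 36 pairs of tissues, as a description in which genes are not replicates and each library enters 8 pairs. The most alike were stem and leaf (0.89), leaf and pericarp (0.87), stem and pericarp (0.86), flower bud and flower (0.85) and young fruit and pericarp (0.81). The least alike were young fruit and seed (0.52), root and flower bud (0.52), root and pulp (0.52) and flower bud and young fruit (0.53). For the 1423 other transcription factor genes the pair of flower bud and flower had the highest value (0.93), and r for flower bud and young fruit was 0.78. The median over the 36 pairs was 0.69 for the bHLH genes and 0.76 for the other transcription factor genes, and 33 of the 36 pairs had a lower r over the bHLH genes. In the least alike pairs named above, in that order, r was 0.70, 0.30, 0.28 and 0.55 over the MYB genes. Over the NAC genes it was 0.78, 0.78, 0.70 and 0.74, and over the other transcription factor genes 0.75, 0.67, 0.61 and 0.78. In these pairs, and in every other pair of tissues, the MYB genes also lay below the other transcription factor genes. A low r was thus not particular to the bHLH genes. For stem and leaf r was 0.83 over the MYB genes, 0.93 over the NAC genes and 0.88 over the other transcription factor genes. For flower bud and flower it was 0.89, 0.98 and 0.93.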

How the data were processed

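The authors made 1 Illumina cDNA library from total RNA of each of the 9 tissues. Per the study's methods, adaptor, low-quality, organelle and ribosomal reads were removed and clean reads were aligned to the longan draft genome (TopHat2 2.0.10 per the labels). The deposited values are FPKM with 2 decimals, and the tool that computed them is not given in the sources used here.

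FPKM values were used as deposited and column names gave the tissues. Members were matched by identifier, ignoring case. No test was made, since each tissue has 1 library. Differences were computed as log2(FPKM + 1) over genes above 0 in either tissue. Alternatives were 0.1 or 5 FPKM added, a minimum of 1 FPKM, median-ratio scaling, other limits on FPKM and tau, omission of pulp, and other limits on identifier distance. Named genes were the 2 highest members in each tissue, restricted and steady genes, the 5 with the highest mean, the 2 largest differences in each direction of each comparison, members with close identifiers, annotated members and members at 0 or not matched. Other genes named were chosen after their values were seen. The members and lists were chosen with earlier results of these data known. Functions were tested on simulated data. Python 3.11.15, numpy 2.4.6, pandas 2.3.3 and matplotlib 3.10.9 were used.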

Additional observations from a re-analysis of the deposited data

How the results depend on the processing

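No paired analysis was possible because no tissue has more than 1 library. The number of members that differed at least 2-fold depended on the value added to FPKM. With 0.1 FPKM added it was 48 in flower bud VS flower, 54 in young fruit VS pericarp, 57 in pericarp VS pulp and 59 in pericarp VS seed. With 5 FPKM added it was 16 in flower bud VS flower, 18 in leaf VS stem, 29 in root VS stem, 22 in pericarp VS pulp and 26 in pulp VS seed. The other counts under these 2 settings, and all 12 with at least 1 FPKM in either tissue or with median-ratio scaling, stayed within 1.5 times. The share of members that differed was above that of all genes in 12 of 12 comparisons under each of the 4 settings. Against the other transcription factor genes it was above in 12 of 12 comparisons with 0.1 FPKM added or the minimum of 1 FPKM, in 11 with scaling and in 8 with 5 FPKM added. Shares of the MYB and NAC genes under these settings were not computed. Restricted genes numbered 12 with 0.1 FPKM added and 9 with a highest value of at least 10 FPKM (chosen after seeing the data), and 30 at a tau limit of 0.8. Scaling turned the sign of the small median difference in flower bud VS flower (0.11 to -0.04) and flower VS young fruit (-0.21 to 0.09). In young fruit VS pericarp, scaling moved the share of differing members higher in young fruit to 67.7%, against 80.0% unscaled. Without counts, low FPKM values have no stated error, and a value of 0 does not show that a gene is silent.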
